A study of Mus musculus with 16 samples.

Results

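In the count tables of tibial cortical bone, 9 of 47517 rows were studied because their exons lie on the DNA strand opposite exons of skeletal muscle genes. They were taken by name: Rabep2 (opposite Atp2a1), Ube2c (opposite Tnnc2), 9430073C21Rik (opposite Myh2), Gm12300 (opposite Myh1), A930016O22Rik (opposite Ckm), Gm13938 (opposite Ttn), Gm17224 (opposite Casq1), and Gm26604 and Gm44408 (both opposite Ryr1). All 9 passed the filter on low counts in every comparison. The tissue was cortical bone of the tibia from 8 male mice aged 16 weeks, 4 labelled NT3-Cre+ (NT3 in the following) and 4 labelled Ctrl. The series title names activation of NF-kB inducing kinase in cells of the bone lineage; no source used here gives the allele, the Cre driver or the Ctrl genotype. The 4 groups of 4 libraries were loaded NT3, non-loaded NT3, loaded Ctrl and non-loaded Ctrl tibiae, and both limbs of each mouse were used. Right tibiae were compressed once a day on 9 days with 1200 cycles at 4 Hz, at a peak force of 10.0 N in NT3 and 8.7 N in Ctrl, to reach -2000 microstrain in both. Left tibiae were not loaded. All mice were anaesthetised with isoflurane and given buprenorphine. At 4 hours after the last bout, the bones were stripped of muscle, flushed of marrow by centrifugation and cut to the region of peak strain. Libraries held 758394 to 911686 counted fragments in loaded NT3, 775531 to 961382 in non-loaded NT3, 852831 to 1064391 in loaded Ctrl and 897909 to 998031 in non-loaded Ctrl. The mean RNA integrity number in the labels was 5.4.

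Skeletal muscle is attached along much of the tibia, and its fibres hold very large amounts of a small set of messengers. Contraction begins when the voltage sensor of the cell membrane opens the ryanodine receptor (Ryr1), the calcium release channel of the sarcoplasmic reticulum, where calsequestrin (Casq1) stores the calcium. Calcium binds troponin C (Tnnc2 in fast fibres), which lets myosin heavy chains (Myh2 in type IIA and Myh1 in type IIX fibres) pull on actin, while titin (Ttn) spans the sarcomere as a spring. Muscle creatine kinase (Ckm) refills ATP, and the pump SERCA1 (Atp2a1) returns calcium to the store in fast fibres. In bulk bone RNA, fewer muscle cells and less muscle RNA per cell cannot be told apart.

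Each of the 9 rows shares exon sequence with its partner on the other strand of GRCm38. The count tables hold 1 number per row, and no source used here gives the strand setting of the counting. Reads of the row's own transcript and of the muscle gene across from it therefore cannot be told apart, and the row name alone does not say which RNA was counted. The exons of Rabep2 (chr7:126428759-126449245, plus strand), named for an effector of the endosomal GTPase Rab5, overlapped Atp2a1 by 763 bases, of which 517 were coding in Atp2a1. Ube2c (chr2:164769898-164778822, plus strand), named for a ubiquitin-conjugating enzyme of mitosis, overlapped Tnnc2 by 592 bases, 477 of them coding. A930016O22Rik (chr7:19417466-19421417, minus strand) overlapped Ckm by 451 bases, 417 of them coding. The myosin pair was 9430073C21Rik (chr11:67195680-67199234, minus strand), with 237 bases over Myh2, and Gm12300 (chr11:67211256-67237573, minus strand), annotated as Myhas, with 515 bases over Myh1. Gm13938 (chr2:76722776-76786708, plus strand) lay with 91.9% of its exon bases over coding exons of Ttn. Gm17224 (chr1:172213021-172213680, plus strand) overlapped Casq1 by 156 bases, Gm26604 (chr7:29071603-29081142, plus strand) overlapped Ryr1 by 864, and Gm44408 (chr7:29045628-29045693, plus strand), annotated as a miRNA, overlapped Ryr1 by 50 of its 66 bases.

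**Figure D1:**
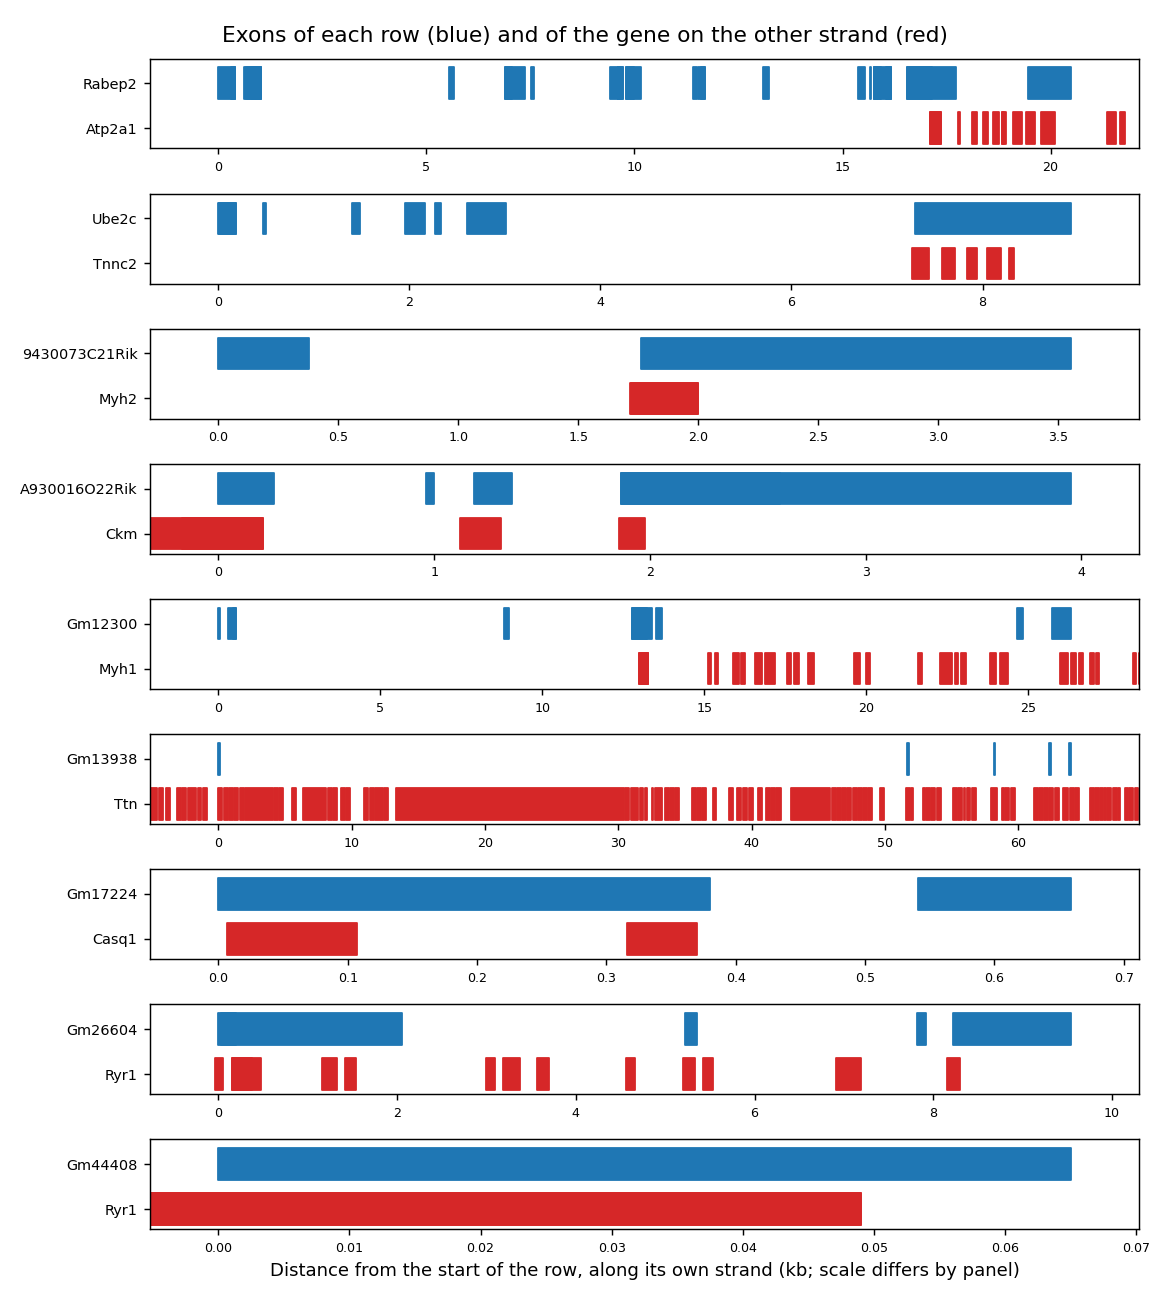
Exons of each of the 9 rows (blue) and of the gene on the other strand (red), drawn by distance in kb from the start of the row along its own strand, with a separate scale in each panel. Red and blue blocks coincide over part of every row, from 10.9% of the exon bases of 9430073C21Rik to 91.9% of those of Gm13938.

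The sequences below show stretches that the rows share with the muscle genes, taken from the GENCODE M21 transcripts on GRCm38 and written 5′ to 3′ along the strand of the row. The count tables do not say where in a row its fragments lie. The first pair gives the whole Gm44408 row, with the stretch over a coding exon of Ryr1 in capitals, and the same stretch at chr7:29045628-29045677 as the Ryr1 messenger reads it on the minus strand. The row is shorter than the 75-base reads.
Gm44408: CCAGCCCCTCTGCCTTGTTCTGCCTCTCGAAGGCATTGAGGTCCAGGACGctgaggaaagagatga
Ryr1, other strand: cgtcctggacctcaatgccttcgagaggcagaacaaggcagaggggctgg

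The next stretches each lie wholly over a coding exon of the muscle gene, at chr7:126448225-126448382 (plus strand, over Atp2a1), chr7:19420107-19420232 (minus, over Ckm), chr2:76780922-76781031 (plus, over Ttn) and chr1:172213028-172213128 (plus, over Casq1). They are shown because a read inside them overlaps exons of both genes.
Rabep2: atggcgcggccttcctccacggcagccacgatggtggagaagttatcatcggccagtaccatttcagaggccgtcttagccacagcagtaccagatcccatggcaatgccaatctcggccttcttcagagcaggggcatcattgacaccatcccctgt
A930016O22Rik: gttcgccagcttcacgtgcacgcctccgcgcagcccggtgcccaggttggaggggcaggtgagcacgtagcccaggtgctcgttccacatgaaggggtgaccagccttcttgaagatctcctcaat
Gm13938: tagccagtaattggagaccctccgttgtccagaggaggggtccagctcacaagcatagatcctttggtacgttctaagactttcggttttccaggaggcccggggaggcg
Gm17224: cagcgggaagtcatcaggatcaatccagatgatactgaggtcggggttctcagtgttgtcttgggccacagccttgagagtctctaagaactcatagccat

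The myosin stretches are set side by side because they are near copies, at chr11:67197236-67197385 over Myh2 and chr11:67224317-67224466 over Myh1, both on the minus strand. Capitals mark the bases that differ. Of 150 bases, 142 are identical (94.7%), and the longest identical run of 120 bases is longer than a 75-base read. A read inside that run matches both places equally, so the counts of both rows are uncertain to that extent.
9430073C21Rik: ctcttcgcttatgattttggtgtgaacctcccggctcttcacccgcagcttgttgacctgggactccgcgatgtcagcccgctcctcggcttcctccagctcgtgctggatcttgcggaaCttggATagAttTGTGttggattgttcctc
Gm12300: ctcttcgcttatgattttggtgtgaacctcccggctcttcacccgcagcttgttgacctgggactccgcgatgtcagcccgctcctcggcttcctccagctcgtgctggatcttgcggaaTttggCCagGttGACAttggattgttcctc

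Summed over the 9 rows, the fragments differed far more between single libraries than between groups. The sum, in counts per 1e+06 fragments after TMM scaling (CPM), was 5280, 5165, 1370 and 4572 in the loaded limbs of NT3 mice 1 to 4, and 3612, 5704, 2988 and 16709 in their non-loaded limbs. It was 3582, 16214, 1602 and 9549 in the loaded limbs of Ctrl mice 1 to 4, and 4481, 4576, 2141 and 13226 in their non-loaded limbs. The non-loaded limb of NT3 mouse 4, the loaded limb of Ctrl mouse 2 and both limbs of Ctrl mouse 4 stood above the other 12 libraries, and every pair of groups overlapped. The highest library was 12.2-fold above the lowest. As raw fragments, the sum was 1041 in the loaded limb of NT3 mouse 3, or 0.133% of that library, and 15662 in the non-loaded limb of NT3 mouse 4, or 1.84%. Group means were 4097 ± 1844 CPM in loaded NT3, 7253 ± 6410 in non-loaded NT3, 7737 ± 6584 in loaded Ctrl and 6106 ± 4878 in non-loaded Ctrl (SD, n = 4 each). Each difference between these means was smaller than the largest SD, but not each was smaller than the smallest, 1844 in loaded NT3. This describes the spread and is no test of whether the groups differ.

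**Figure D2:**
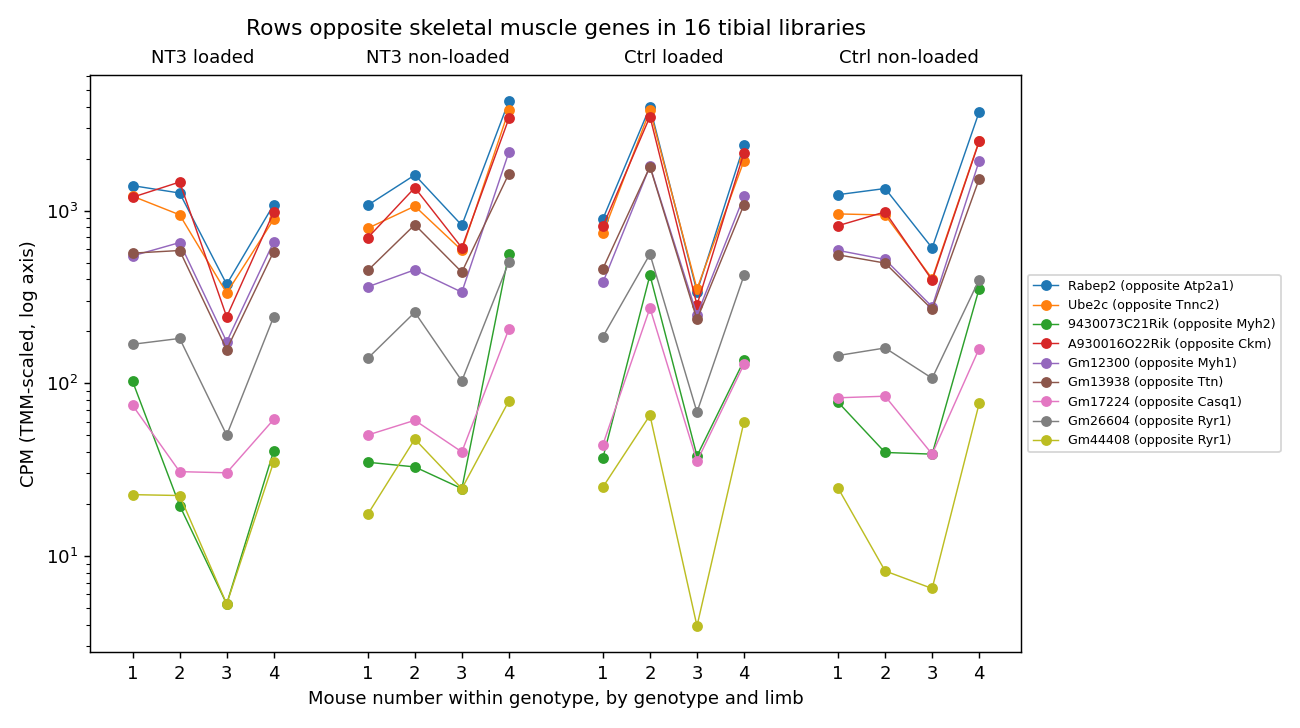
TMM-scaled CPM of each of the 9 rows (log axis) in every library, with mice 1 to 4 along the horizontal axis in each group. Lines link the values of a row within a group and carry no order. The 9 rows share their high libraries, NT3 non-loaded mouse 4, Ctrl loaded mouse 2 and both limbs of Ctrl mouse 4, while the groups overlap.

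Among rows opposite the calcium handling genes, Rabep2 lay opposite the fast-fibre pump gene Atp2a1 and held the most fragments of the 9 rows. Rabep2 had 1394, 1263, 374 and 1084 CPM in loaded NT3 and 1074, 1607, 822 and 4307 CPM in non-loaded NT3. It had 896, 3984, 339 and 2396 CPM in loaded Ctrl and 1236, 1342, 607 and 3730 CPM in non-loaded Ctrl. The same 4 libraries as in the sum were high, and the groups overlapped. Mouse 3 gave the lowest Rabep2 value of its group in each of the 4 groups, though NT3 mouse 3 and Ctrl mouse 3 are different animals.

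Gm17224, opposite the calcium store gene Casq1, had 74.3, 30.7, 30.3 and 61.7 CPM in loaded NT3 and 50.1, 61.0, 40.0 and 206 CPM in non-loaded NT3. It had 44.1, 273, 35.3 and 129 CPM in loaded Ctrl and 82.3, 84.1, 38.8 and 159 CPM in non-loaded Ctrl. Its range of 9.01-fold was the narrowest of the 9 rows, and the groups again overlapped.

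The Ryr1 gene had a long and a short row opposite it. Gm26604 had 168, 182, 50.02 and 243 CPM in loaded NT3 and 139, 257, 103 and 502 CPM in non-loaded NT3. It had 186, 559, 68.0 and 421 CPM in loaded Ctrl and 145, 160, 107 and 398 CPM in non-loaded Ctrl. In Gm26604 the loaded limb of Ctrl mouse 4 ranked above the non-loaded limb of that mouse, which made it the one row of the 9 whose 3 highest libraries were not those of the sum. Gm44408 held 21, 16, 4 and 25 fragments in loaded NT3, 16, 42, 19 and 74 in non-loaded NT3, 21, 66, 3 and 53 in loaded Ctrl and 21, 7, 6 and 75 in non-loaded Ctrl. With so few fragments, the 20.1-fold range of Gm44408 rests on lows of 3 and 4.

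Rows opposite the contractile genes had the same high libraries. Ube2c, opposite the fast troponin C gene Tnnc2, had 1211, 945, 333 and 890 CPM in loaded NT3 and 789, 1060, 588 and 3819 CPM in non-loaded NT3. It had 737, 3806, 352 and 1946 CPM in loaded Ctrl and 956, 942, 403 and 2534 CPM in non-loaded Ctrl. The non-loaded limb of NT3 mouse 4 stood far above the other libraries of its group, and each pair of groups overlapped.

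Gm12300, opposite the IIX myosin gene Myh1, had 546, 653, 174 and 659 CPM in loaded NT3 and 362, 454, 337 and 2180 CPM in non-loaded NT3. It had 384, 1807, 249 and 1211 CPM in loaded Ctrl and 588, 521, 277 and 1939 CPM in non-loaded Ctrl. Its 12.5-fold range was close to that of Rabep2, 12.7-fold.

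9430073C21Rik, opposite the IIA myosin gene Myh2, had the widest range of the 9 rows, 107-fold. It held 95, 14, 4 and 29 fragments in loaded NT3 and 32, 29, 19 and 528 in non-loaded NT3. It held 31, 428, 29 and 120 fragments in loaded Ctrl and 66, 34, 36 and 347 in non-loaded Ctrl. The row therefore rested mainly on 3 libraries with over 300 fragments each, 1 of non-loaded NT3, 1 of loaded Ctrl and 1 of non-loaded Ctrl.

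The 9430073C21Rik row did not keep a fixed ratio to Gm12300. Its fragments were 0.0300 of those of Gm12300 in the loaded limb of NT3 mouse 2 and 0.258 in the non-loaded limb of NT3 mouse 4, with a median of 0.104 over the 16 libraries. The range of this ratio was 8.62-fold, and its lows rest on 14 and 4 fragments of 9430073C21Rik. As shares of the sum of the 9 rows, Gm44408 ranged 4.65-fold, Gm17224 3.71-fold and Rabep2, the most abundant, 1.41-fold. These ratios were not tested.

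Gm13938, opposite the titin gene Ttn, held 526, 420, 119 and 413 fragments in loaded NT3 and 413, 733, 341 and 1533 in non-loaded NT3. It held 387, 1817, 179 and 959 fragments in loaded Ctrl and 471, 425, 248 and 1497 in non-loaded Ctrl. Mouse 3 was the lowest of each group in Gm13938 as in Rabep2, and the groups overlapped. Per kb of row length, Gm13938 had the highest median level of the 9 rows, 1137 CPM per kb. Its row is 493 bases long and made of short exons, which makes a level per kb uncertain.

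A930016O22Rik, opposite the creatine kinase gene Ckm, had 1195, 1463, 242 and 980 CPM in loaded NT3 and 696, 1356, 609 and 3417 CPM in non-loaded NT3. It had 812, 3501, 284 and 2167 CPM in loaded Ctrl and 817, 982, 395 and 2513 CPM in non-loaded Ctrl. The limbs of NT3 mouse 2 were close, 1463 and 1356 CPM, and the groups overlapped. Per kb of row length its median level was 383 CPM per kb, against 363 for Ube2c, 263 for Gm12300, 235 for Rabep2 and 18.1 for 9430073C21Rik. These are levels over the whole row, of which the overlap with the muscle gene is a part.

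The 9 rows moved together across libraries. Of 36 pairs of rows, the Pearson correlation of log2 CPM ran from 0.732 to 0.984 with a median of 0.922, as a description over 16 libraries from 8 mice that share library scaling. In 8 of the 9 rows, the 3 highest libraries were NT3 non-loaded mouse 4, Ctrl loaded mouse 2 and Ctrl non-loaded mouse 4. The lowest library was NT3 loaded mouse 3 in 7 rows and Ctrl loaded mouse 3 in Rabep2 and Gm44408. The 4 highest libraries held 58.8% of all fragments of the 9 rows. Because the rows share these libraries, the 9 rows are not 9 separate observations.

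**Figure D3:**
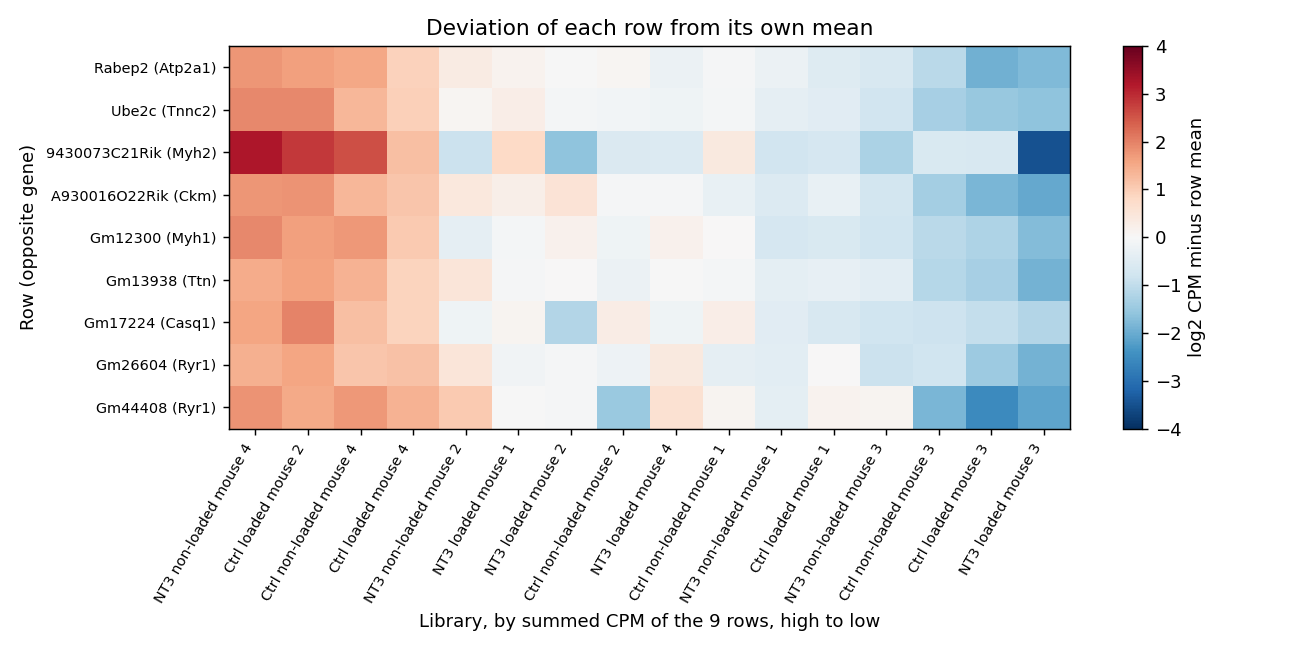
Log2 CPM of each row minus its mean over 16 libraries, with libraries sorted from high to low summed CPM and the opposite gene beside each row name. The 4 leftmost libraries are above the mean and the 3 rightmost below it in all 9 rows, and 9430073C21Rik deviates the most.

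Within mice, the loaded limb was not steadily the lower or the higher one. The ratio of the loaded to the non-loaded limb, for the sum of the 9 rows, was 1.46, 0.905, 0.459 and 0.274 in NT3 mice 1 to 4, and 0.800, 3.54, 0.748 and 0.722 in Ctrl mice 1 to 4. The sum was lower in the loaded limb of 6 of the 8 mice and higher in the remaining ones. In NT3 mouse 1 and Ctrl mouse 2 all 9 rows were higher in the loaded limb, and in NT3 mice 3 and 4 and Ctrl mouse 3 all 9 were lower. In the other mice the rows were divided, with 2 of 9 higher in the loaded limb of NT3 mouse 2, 2 of 9 in Ctrl mouse 1 and 1 of 9 in Ctrl mouse 4. After genotype means were removed, the SD between mice of the mean of both limbs was 1.04 log2 units, and the SD between mice of the limb difference was 1.09 log2 units (8 mice). Limbs with no relation to each other would give a limb difference with 2 times the SD of the mean of both limbs, and the ratio here was 1.05. With each mouse left out it was 0.772 to 1.38. Both SDs rest on 8 mice, and the distance of the ratio from 2 was not tested.

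**Figure D4:**
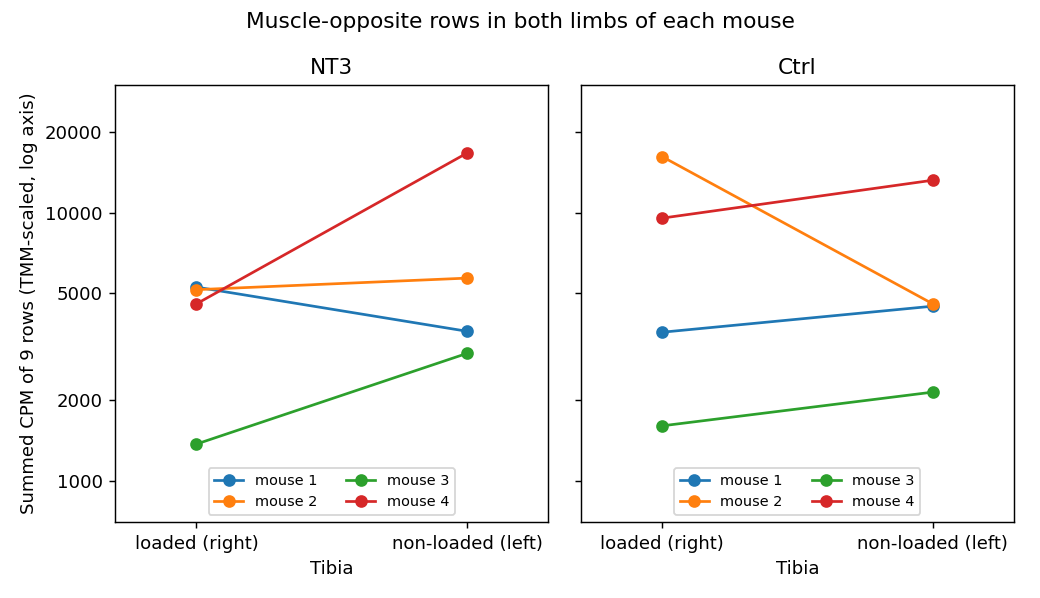
Summed TMM-scaled CPM of the 9 rows (log axis) in the loaded right and the non-loaded left tibia, with a line for each mouse, NT3 in the left panel and Ctrl in the right panel. The lines slope both ways: loaded over non-loaded was 1.46 in NT3 mouse 1 and 0.274 in NT3 mouse 4, against 3.54 in Ctrl mouse 2 and 0.722 in Ctrl mouse 4.

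In the comparison of NT3 with Ctrl in non-loaded tibiae, 0 of the 9 rows passed edgeR's quasi-likelihood test at adjusted p < 0.05 (Benjamini-Hochberg over all rows tested). Of all 6220 rows tested, 36 passed, or 0.579%. At an unadjusted p under 0.05 the count among the 9 rows was 0, against 486 of all 6220 rows, and DESeq2 called 0 of the 8 to which it gave an adjusted p. Rabep2 averaged 1952 ± 1604 CPM in NT3 and 1729 ± 1373 in Ctrl (SD, n = 4 each), a log2 fold change of 0.16 (SE 0.76, 95% interval -1.67 to 1.99, edgeR adjusted p = 0.988). The median log2 fold change of the 9 rows was 0.30, against -0.01 over all rows tested. It was -0.56 without NT3 mouse 4 and 0.92 without Ctrl mouse 4, so its direction changed with 1 mouse left out.

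In loaded tibiae, 0 of the 9 rows passed edgeR for NT3 against Ctrl, where 161 of 6080 rows tested, or 2.65%, did so. The count at an unadjusted p under 0.05 was 0, against 808 of all rows tested, and DESeq2 called 0. All 9 log2 fold changes were negative, from -1.89 in 9430073C21Rik to -0.81 in A930016O22Rik, with a median of -0.93 against -0.0016 over all rows tested. Rabep2 averaged 1029 ± 455 CPM in NT3 and 1903 ± 1636 in Ctrl (SD, n = 4 each), a log2 fold change of -0.89 (SE 0.81, interval -2.86 to 1.07, edgeR adjusted p = 0.759). Every one of the 9 intervals held 0. The median was -0.32 without Ctrl mouse 2 and -1.24 without Ctrl mouse 3.

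For loading in NT3, with both limbs paired by mouse, 0 of the 9 rows passed edgeR, against 30 of 7192 rows tested, or 0.417%. The count at an unadjusted p under 0.05 was 0, against 546 of all rows tested, and DESeq2 called 0. The 9 log2 fold changes ran from -1.26 to -0.38 with a median of -0.68, against -0.0039 over all rows. Rabep2 had a log2 fold change of -0.77 (SE 0.54, interval -2.08 to 0.55, edgeR adjusted p = 0.865), and the smallest p was that of Gm44408 (log2 -0.92, edgeR unadjusted p = 0.079, adjusted p = 0.746). The median was -0.20 without NT3 mouse 4 and -1.15 without NT3 mouse 1.

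For loading in Ctrl, 0 of the 9 rows passed edgeR, against 293 of 7192 rows tested, or 4.07%. The count at an unadjusted p under 0.05 was 0, against 1061 of all rows tested, and DESeq2 called 0. The median log2 fold change was 0.21, against -0.03 over all rows, and the range was -0.11 in Rabep2 to 0.52 in Gm44408. Rabep2 had an interval of -1.43 to 1.20 (SE 0.54, edgeR adjusted p = 0.961). Without Ctrl mouse 2, whose loaded limb was high, the median was -0.33, and without Ctrl mouse 4 it was 0.50.

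The difference between the loading effects, NT3 minus Ctrl, was called in 0 of the 9 rows by edgeR, against 10 of 7192 rows, or 0.139%. The count at an unadjusted p under 0.05 was 0, against 472 of all rows tested, and DESeq2 called 0. All 9 values were negative, from -1.44 to -0.44 with a median of -0.86, against 0.01 over all rows. Gm44408 came nearest to the threshold (-1.44, SE 0.69, interval -2.92 to 0.04, edgeR unadjusted p = 0.056, adjusted p = 0.780). Rabep2 had -0.66 (SE 0.77, interval -2.51 to 1.20, edgeR adjusted p = 0.954). The median was -0.29 without Ctrl mouse 2.

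Averaged over both genotypes, loading called 0 of the 9 rows by edgeR, against 316 of 7192 rows, or 4.39%. The count at an unadjusted p under 0.05 was 0, against 1130 of all rows tested, and DESeq2 called 0. All 9 log2 fold changes were negative, with a median of -0.20 against -0.02 over all rows. Rabep2 had -0.44 (SE 0.38, interval -1.37 to 0.49, edgeR adjusted p = 0.687). The median was -0.55 without Ctrl mouse 2 and 0.07 without NT3 mouse 4. A p above the threshold does not show that the groups were alike: the intervals of the 9 rows in this comparison reached from -2.68 to 1.60 log2 units.

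**Figure D5:**
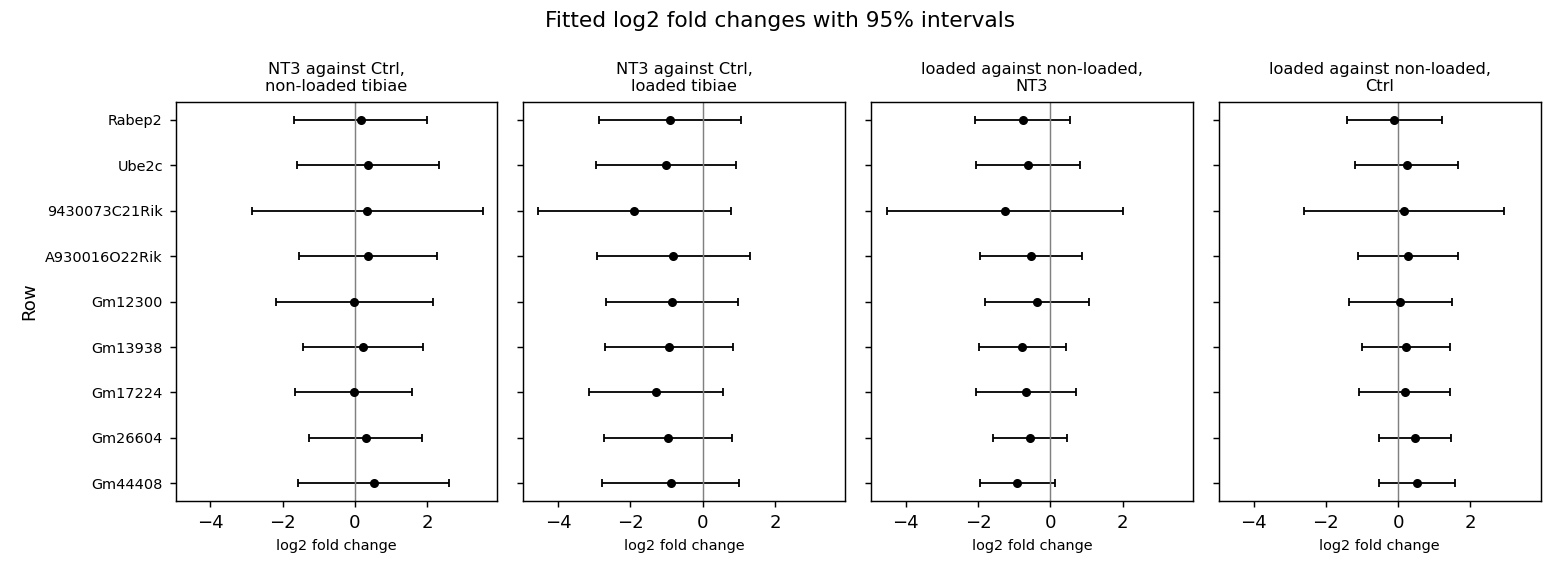
Fitted log2 fold change of each row (points) with its 95% interval (bars) in 4 comparisons, with 0 as a grey line. All 36 intervals cross 0, and the points lie below 0 in both panels that hold loaded NT3 tibiae, with medians of -0.93 and -0.68. These panels share the loaded NT3 libraries and the rows move together, so the signs are not separate observations. The medians were -0.32 without Ctrl mouse 2 and -0.20 without NT3 mouse 4.

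In the paired fit of the loading comparisons, the spread was wide for the 9 rows. The NT3 against Ctrl comparisons were fitted separately, on the 8 libraries of a limb. The biological coefficient of variation measures variation beyond counting, here what is left after differences between mice and the loading effects are removed. It ran from 0.382 in Gm26604 to 0.876 in 9430073C21Rik, against a median of 0.216 over 7192 rows. Between 98.2% and 99.9% of all rows had a lower value than each of the 9.

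Rows named for the muscle genes themselves held few fragments. Atp2a1 held 33 to 90 fragments per library, Tnnc2 0 to 10, Ckm 0 to 12, Myh2 0 to 21, Myh1 2 to 47, Casq1 4 to 21 and Ryr1 6 to 31. Ttn held 162 to 372 fragments over its very long exons. Per base of row length, the fragments of each row exceeded those of the gene opposite by 17.3-fold (Rabep2 over Atp2a1) to 660-fold (Gm13938 over Ttn), pooled over 16 libraries. Without division by length, Gm13938 held 10481 fragments against 3764 for Ttn, or 2.78-fold. Gm44408 held 469 against 248 for Ryr1, or 1.89-fold. These 2 rows are only 493 and 66 bases long, which makes their level per base uncertain. These are comparisons of row totals and do not say from which strand the RNA came.

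The 10 further rows most like Rabep2, by Pearson correlation of log2 CPM over 16 libraries among 4105 rows averaging at least 20 fragments, included several opposite other muscle genes. Those given here were Myh4 (0.922, the IIB myosin gene itself), Gm15469 (0.919, opposite Trim54) and Gm37759 (0.911, opposite Cacna1s, the voltage sensor of muscle). RP23-455C13.4 (0.904) could not be placed with the annotation used. Habp2 (0.893, opposite Nrap), Gm13601 (0.878, opposite Xirp2), Fam57b (0.855, opposite the aldolase gene Aldoa by 25 bases) and Rbbp4 (0.837, opposite Gm26722 and Sync) were also among them. The median over all rows compared was -0.02. Myh4 held 4 to 62 fragments per library and Fam57b 441 to 1123, and Fam57b had a range of 1.91-fold after scaling, so a high correlation did not mean a change of equal size.

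Of 11 further rows opposite genes common to all skeletal muscle, 7 shared at least 2 of their 3 highest libraries with the sum of the 9 rows. Another, Gm13522 (opposite Neb), was at 0 throughout and so had no highest library. Among the 7, Itgad held 1 to 19 fragments and correlated with the sum at only 0.312 on a log2 scale. The share of all rows with such libraries was not determined, so 7 of 11 is no result about the list. The summed level of the 11 rows was 109 to 315 CPM in loaded NT3, 208 to 826 in non-loaded NT3, 194 to 819 in loaded Ctrl and 180 to 868 in non-loaded Ctrl, a range of 7.94-fold. Gm37759, opposite Cacna1s, held 33 to 283 fragments and Gm13601, opposite the actin-binding repeat gene Xirp2, 7 to 236. Of the 5 or 6 of these rows that passed the filter, edgeR and DESeq2 called 0 in each of the 6 comparisons. At an unadjusted p under 0.05, edgeR gave 1 row each for NT3 against Ctrl in loaded limbs, loading in NT3 and the difference between loading effects, and 0 in the other comparisons. Over all rows these counts were 808 of 6080, 546 of 7192 and 472 of 7192, so 1 of 5 or 6 rows is no result about the list. Their median log2 fold change was -0.88 for NT3 against Ctrl in loaded limbs and -0.01 in non-loaded limbs.

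The sum of the 6 rows opposite genes of slow fibres varied little between libraries, though its small rows did not. These rows summed to 423 to 525 CPM in loaded NT3, 434 to 549 in non-loaded NT3, 394 to 524 in loaded Ctrl and 389 to 530 in non-loaded Ctrl, a range of 1.41-fold. Most of this was Gm43361, opposite the calcium pump gene Atp2a2, which many other cell types also use, with 369 to 511 CPM. Mhrt, opposite the slow myosin gene Myh7, held 0 to 46 fragments, and its highest library was the loaded limb of Ctrl mouse 1, which was not among the high libraries of the 9 rows. The next highest were among them: the loaded limb of Ctrl mouse 4 (24 fragments) and the non-loaded limb of NT3 mouse 4 (13). Gm29015, also opposite Myh7, held 0 to 11 fragments and was highest in the non-loaded limb of NT3 mouse 4. On a log2 scale, Mhrt and Gm29015 correlated with the sum of the 9 rows at 0.214 and 0.135.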

How the data were processed

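Libraries were made from ribosomal RNA-depleted total RNA with random primers and read single-end for 75 bases, per the labels' protocols. The deposited values were whole-number fragment counts per gene, made by the authors. The submitters' processing notes name STAR 2.4.2a, the mm10 build, featureCounts 1.4.6 of Subread and DESeq2. No source used here gives the annotation release or the strand setting.

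Rows were placed on GRCm38 with GENCODE M21: 45250 by symbol and 621 by a RefSeq synonym, including 8 and 1 of the 9 rows. A row was opposite a gene where exons overlapped by at least 20 bases. The 9 rows, the gene lists and the rule for named rows were chosen with earlier results of these data known. Named rows were the 9, the genes opposite them, the 10 rows most like Rabep2 and up to 4 rows of each marker list with the highest mean counts; some named rows are not reported here.

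Rows were filtered with filterByExpr (minimum count 10), TMM-scaled and tested by the robust quasi-likelihood F test of edgeR 4.0.16 (R 4.3.3, limma 3.58.1), with Benjamini-Hochberg adjustment over all rows tested. Genotype comparisons used the 8 libraries of a limb. Loading comparisons used 16 libraries with mouse as a replicate block. Limbs were paired as the design text states, and deviations of the 2 limbs of a mouse from their group means correlated at 0.0435 to 0.175. The alternatives were DESeq2 1.42.0, RLE scaling, no filter, no replicate block, other library totals, each mouse left out, and the mean of the 9 rows as a covariate. The steps were tested on simulated data. Depth was 758394 to 1064391 fragments per library, so rows near 10 fragments carry large counting error.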

Additional observations from a re-analysis of the deposited data

Results flagged for a closer look

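In 6 of 40 sets of 4 libraries (each of the 9 rows and their sum, in each of the 4 groups), 1 library stood apart from the others by the gap to its nearest neighbour as a share of the range of CPM in the group. A chance rate of about 1 in 20 holds only for normally distributed values. The CPM were not log-transformed here and ranged from 9.01-fold (Gm17224) to 107-fold (9430073C21Rik) over the libraries. The 6 flagged sets therefore cannot be weighed against that rate, and flags on a log scale were not tested. The 9 rows also share their libraries, so the flagged sets are not separate events.

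The non-loaded limb of NT3 mouse 4 was the high one in 4 sets: this share was 0.854 for Ube2c (opposite Tnnc2), 0.981 for 9430073C21Rik (opposite Myh2), 0.936 for Gm12300 (opposite Myh1) and 0.873 for Gm17224 (opposite Casq1). The non-loaded limb of Ctrl mouse 4 was the high one for 9430073C21Rik, with a share of 0.877. The loaded limb of NT3 mouse 3 was the low one for Gm13938 (opposite Ttn), with a share of 0.953.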

How the results depend on the processing

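Under RLE scaling, no filter, DESeq2, no replicate block and each mouse left out, 0 of the 9 rows were called in each comparison. The covariate made from these rows and the other library totals give no test of them. The replicate block, which pairs the limbs of a mouse, moved counts over all rows: without it, loading called 171 rows in Ctrl, 5 in NT3 and 205 over both genotypes, the difference between loading effects 0 (335 at an unadjusted p under 0.05 by edgeR), and Rabep2 in Ctrl had a log2 fold change of 0.14. DESeq2 called 169 rows for loading in Ctrl, 17 in NT3, 197 over both genotypes and 6 for the difference. Without the filter on low counts, 71 rows were called for NT3 against Ctrl in non-loaded limbs and 17 for the difference. With the mean of the 9 rows as a covariate, chosen after seeing the data, 19 rows were called for loading in NT3 and 5 for the difference. In that fit, loading called 270 rows in Ctrl and 280 over both genotypes. NT3 against Ctrl called 123 rows in loaded limbs and 48 in non-loaded limbs, the latter more than the 36 without the covariate. The cause of these changes was not tested.

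With each mouse left out, calls ran from 12 (without Ctrl mouse 2) to 77 (without Ctrl mouse 1) for non-loaded NT3 against Ctrl, with 20 without Ctrl mouse 3 and 14 without NT3 mouse 3. They ran from 163 (without Ctrl mouse 2) to 325 for loading in Ctrl, with 188 without Ctrl mouse 3, and from 17 (without NT3 mouse 1) to 44 for loading in NT3. Rabep2 ran from -0.56 to 0.86 for non-loaded NT3 against Ctrl, with -0.12 without Ctrl mouse 3, and from -0.65 to 0.13 for loading in Ctrl. The median of the 9 rows ran from -0.56 to 0.92 for non-loaded NT3 against Ctrl, -0.33 to 0.50 for loading in Ctrl and -0.55 to 0.068 (without NT3 mouse 4) for loading over both genotypes. The fold between the highest and lowest summed library was 13.9 without TMM scaling, against 12.2. The SD of the limb difference over the SD between mice was 0.772 to 1.38 with each mouse left out, against 1.05. With 4 mice per genotype, the intervals printed with each comparison show which differences the data allow. They do not show which differences could have been called.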

Other observations

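Lists of cell types that adjoin or lie within bone were read by the row's own name, as sums over all rows of the list and as lowest to highest library of a group. For the muscle genes opposite the rows studied, the row named for the gene held fewer fragments, pooled over libraries, than the row opposite it. The excess ran from 1.89-fold (Gm44408 over Ryr1) to 395-fold (Ube2c over Tnnc2). A low sum by own name therefore does not show that a cell type was absent. The excess did not hold for every other muscle gene: Neb held 28 to 81 fragments by its own name, and Gm13522, opposite it, held 0. The 10 rows of regulators of muscle formation and satellite cells summed to 17.2 to 25.2 CPM in loaded NT3, 12.9 to 23.7 in non-loaded NT3, 21.5 to 35.6 in loaded Ctrl and 17.5 to 36.6 in non-loaded Ctrl. Most of this was Mef2c, which other cell types also express, at 7 to 31 fragments, while Myf6 was at 0 in every library and Myod1 held 0 to 11. The 7 rows of cardiac muscle summed to at most 38.4 CPM in any library, with Nppb at 0. The 6 rows of tendon summed to 37.7 to 47.7 CPM in loaded NT3, 19.2 to 39.5 in non-loaded NT3, 23.9 to 48.4 in loaded Ctrl and 25.7 to 45.9 in non-loaded Ctrl. The 7 rows of nerve sheath summed to at most 36.5 CPM, the 6 of endothelium to at most 42.1 and the 7 of adipocytes to at most 134. The 11 rows named for osteoblast and osteocyte genes summed to 747 to 1076 CPM in loaded NT3, 516 to 774 in non-loaded NT3, 980 to 1324 in loaded Ctrl and 451 to 737 in non-loaded Ctrl. The 2 rows opposite genes of that list, Abi3 and Prmt7, summed to 2011 to 4047 CPM in loaded NT3, 698 to 1648 in non-loaded NT3, 3642 to 5613 in loaded Ctrl and 600.3 to 1184 in non-loaded Ctrl.

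By their own names, 16 rows of fast muscle genes summed to 94.8 to 189 CPM in loaded NT3, 144 to 345 in non-loaded NT3, 113 to 267 in loaded Ctrl and 111 to 326 in non-loaded Ctrl. Their range of 3.64-fold was narrower than the 12.2-fold range of the 9 rows. This holds for the sum and not for each row of the list. Atp2a1, the most abundant, had 38.5 to 96.0 CPM. The next most abundant were Myh4 with 4.31 to 63.1 CPM, a 14.6-fold range, Tnnt3 with 0 to 56.5 and Myh1 with 2.62 to 50.1. The 10 rows of slow muscle genes had a range of 1.38-fold and the 30 rows common to all skeletal muscle 1.92-fold. The 3 rows opposite smooth muscle genes summed to 446 to 533 CPM in loaded NT3, 340 to 442 in non-loaded NT3, 637 to 683 in loaded Ctrl and 395 to 549 in non-loaded Ctrl, mostly Gm11946, opposite Smtn. With loading, edgeR called 1 of these 3 rows higher in Ctrl, 0 in NT3 and 2 over both genotypes. DESeq2 called 1, 0 and 1. Over all 7192 rows, edgeR called 4.07%, 0.417% and 4.39%. At an unadjusted p under 0.05, edgeR gave 3 of these 3 rows in Ctrl, 1 in NT3 and 2 over both genotypes, against 1061, 546 and 1130 of all rows. For NT3 against Ctrl in loaded limbs it called 0, with 2 at an unadjusted p under 0.05, against 808 of 6080 rows. For the difference between loading effects it called 0 of the 3. No part of any of these lists in the levels of the 9 rows was tested.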
